A study of Medicago sativa with 6 samples.

Results

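Among the genes of alfalfa (Medicago sativa), a tetraploid forage legume, 220 stood at a nearly even level in 6 tissues. They were chosen from their own values: each had 20 or more TMM CPM in every library, and its highest library was at most 1.5 times its lowest. TMM CPM is the read count of a gene per 1000000 of its library's total, after the total has been rescaled by edgeR's trimmed mean of M-values. The 220 genes were 0.134% of the 164633 annotated genes. They were 6.63% of the 3316 genes that reached 20 TMM CPM in all 6 libraries, called broadly expressed genes here. Evenness was the condition of choice, so it is described and not tested.

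All plants were of the genotype RegenSY27x, with no mutant or treated group in these libraries, and were kept under 16 hours of light at a day temperature of 22 °C and a night temperature of 18 °C. The tissues were flower (flower buds, by the sample title), leaf, nodules, roots, seedpod and stem, with an age of 8 weeks in the growth protocol and the number 20 in an unclear stage label. RNA of the 3 replicates was pooled, and 1 library per tissue was sequenced, so no tissue has replicates and no p-value can be given. Library totals ran from 8568581 counts in roots to 9883512 in nodules, and all intervals are 95% intervals of counting error only.

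Every plant cell runs a common machinery that makes and breaks down proteins, processes RNA, moves cargo between compartments and supplies energy. Genes of that machinery tend to be transcribed in all organs, and those with the steadiest levels serve as reference genes when other transcripts are measured. A steady share of the transcript pool is not the same as a steady amount per cell, because the pool itself differs between organs. In pooled tissue, fewer expressing cells and less RNA per cell cannot be told apart either. The files pair the identifiers of these genes with no names, and 0 identifiers were found among 63463 RefSeq genes of the assembly Bolivia_mono, so genes are given by identifier or by position in the deposited table. What each one encodes is therefore not stated. The genome build is not given in the sources used here. Chromosome 8.4 means haplotype 4 of chromosome 8.

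An even level was uncommon among broadly expressed genes. The median ratio of highest to lowest library was 2.82 over the 3316 genes, and 276 of them (8.32%) differed more than 10-fold. Within the 220 even genes the ratio ran from 1.04 to 1.497, with a median of 1.39. In 102 of them the ratio was above 1.4, and in 24 the highest library was at most 25% above the lowest. Another 118 broadly expressed genes lay just outside, between 1.5 and 1.6, and in all 118 the interval of the ratio reached down to 1.5 or below. The even genes thus form the low end of a continuous range and not a group apart.

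**Figure D1:**
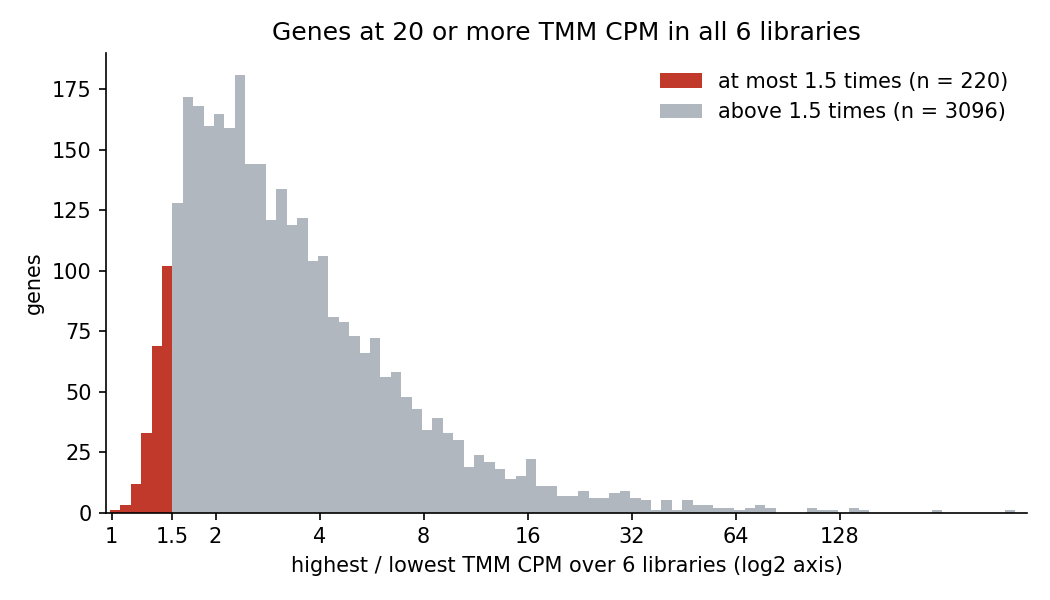
Histogram of the ratio of the highest to the lowest TMM CPM over the 6 libraries (log2 axis) for the 3316 genes at 20 or more TMM CPM in every library. The 220 genes at a ratio of at most 1.5 (red) are the low shoulder of 1 continuous distribution whose median is 2.82.

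The counts behind the even genes ran from 145 to 5274 per gene and library, with a median of 390.5. At this depth the upper end of the interval stayed at or under 1.5 in 47 of the 220 genes. In 214 genes the lower end lay above 1, and in 6 the interval included 1. Since the highest and lowest library were picked from the same counts, these intervals describe depth and are no test.

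By TMM CPM the steadiest gene was MS.gene012534 on chromosome 8.4 (3727530 to 3733040, minus strand), with 9 exons and 2325 nucleotides of exon sequence. It stood at 112 TMM CPM in leaf and 112 in stem, at 111 in flower and 113 in seedpod, and at 115 in both roots and nodules. The 6 intervals overlapped, and the ratio of roots to flower was 1.04 (0.953 to 1.13). The next was MS.gene057731 on chromosome 4.4 (36042322 to 36054754, plus strand), with 21 exons and 2532 nucleotides. Its levels were 21.7 TMM CPM in leaf, 23.3 in stem, 21.5 in flower, 23.1 in seedpod, 21.2 in roots and 22.2 in nodules. Its ratio of 1.099 had a wider interval, 0.908 to 1.33, because its counts were only 156 to 243. The order of the steadiest genes depends on the scaling. With DESeq2 size factors MS.gene057731 had the lower ratio, 1.095 against 1.102 for MS.gene012534. With library totals MS.gene057731 had a ratio of 1.56, outside the limit, and MS.gene012534 had 1.46.

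A gene on chromosome 3.4 (79301137 to 79306693, 12 exons, 2316 nucleotides) came next, with a ratio of 1.13 (0.918 to 1.396), at 20.2 TMM CPM in stem to 22.8 in leaf. With library totals its ratio was 1.37, below that of MS.gene012534. The fourth was far more abundant and had the most exons of the 220, 33, over 6798 nucleotides on chromosome 1.4 (38191456 to 38206108). It stood at 357 TMM CPM in leaf, 370 in stem, 356 in flower, 390.1 in seedpod, 388 in roots and 344 in nodules. With 2565 to 3851 counts per library its ratio of 1.13 had an interval of 1.08 to 1.19, narrower than those of the 3 genes before it. With library totals its ratio was 1.53, with stem highest. The fifth, on chromosome 6.2 (79290146 to 79295389, 7 exons, 1239 nucleotides), lay between 35.2 TMM CPM in roots and 40.2 in flower, at a ratio of 1.14 (0.985 to 1.32).

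Levels between genes were compared per 1000 nucleotides of exon sequence, called coding length because 95.6% of the summed exon lengths of the table were multiples of 3. The mean level of the even genes had a median of 37.1 TMM CPM per 1000 nucleotides, against 56.3 over all broadly expressed genes, and ran from 1.92 to 805. The most abundant genes by this measure were short. MS.gene26408 on chromosome 4.1 (22178642 to 22179720, minus strand, 4 exons, 267 nucleotides) reached 805 per 1000 nucleotides. Its TMM CPM was 254 in leaf, 198 in stem, 179.6 in flower, 197 in seedpod, 212 in roots and 249 in nodules. Leaf and nodules stood highest and flower lowest, at a ratio of 1.41 (1.32 to 1.51) for leaf over flower.

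MS.gene043643 on chromosome 3.2 (44869962 to 44872112, plus strand, 3 exons, 306 nucleotides) followed at 726 TMM CPM per 1000 nucleotides. It had 202 TMM CPM in leaf, 253 in stem, 240.2 in flower, 271 in seedpod, 183 in roots and 184 in nodules. Flower, seedpod and stem were above leaf, nodules and roots, the reverse of MS.gene26408 for leaf and nodules. With library totals in place of TMM scaling, MS.gene043643 kept flower, seedpod and stem above the other tissues. Stem rather than seedpod was then highest, at 298 CPM, and nodules were lowest, at 152. MS.gene26408 was highest in stem and roots, at 234 CPM in each, and lay between 200.5 and 207 in the other tissues.

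The next 3 by level per length were a gene on chromosome 1.3 (26615015 to 26617501, 6 exons) at 308 TMM CPM per 1000 nucleotides, one on chromosome 1.2 (27591275 to 27598562, 8 exons) at 285, and one on chromosome 3.2 (78184469 to 78186245, 4 exons) at 269.9. The first 2 of these were highest in flower, at 261 and 366 TMM CPM, and the last in seedpod, at 229, although flower was highest for it with library totals. In the gene on chromosome 1.2 leaf was lowest, at 244, which made its ratio of 1.497 the nearest to the limit from inside.

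**Figure D2:**
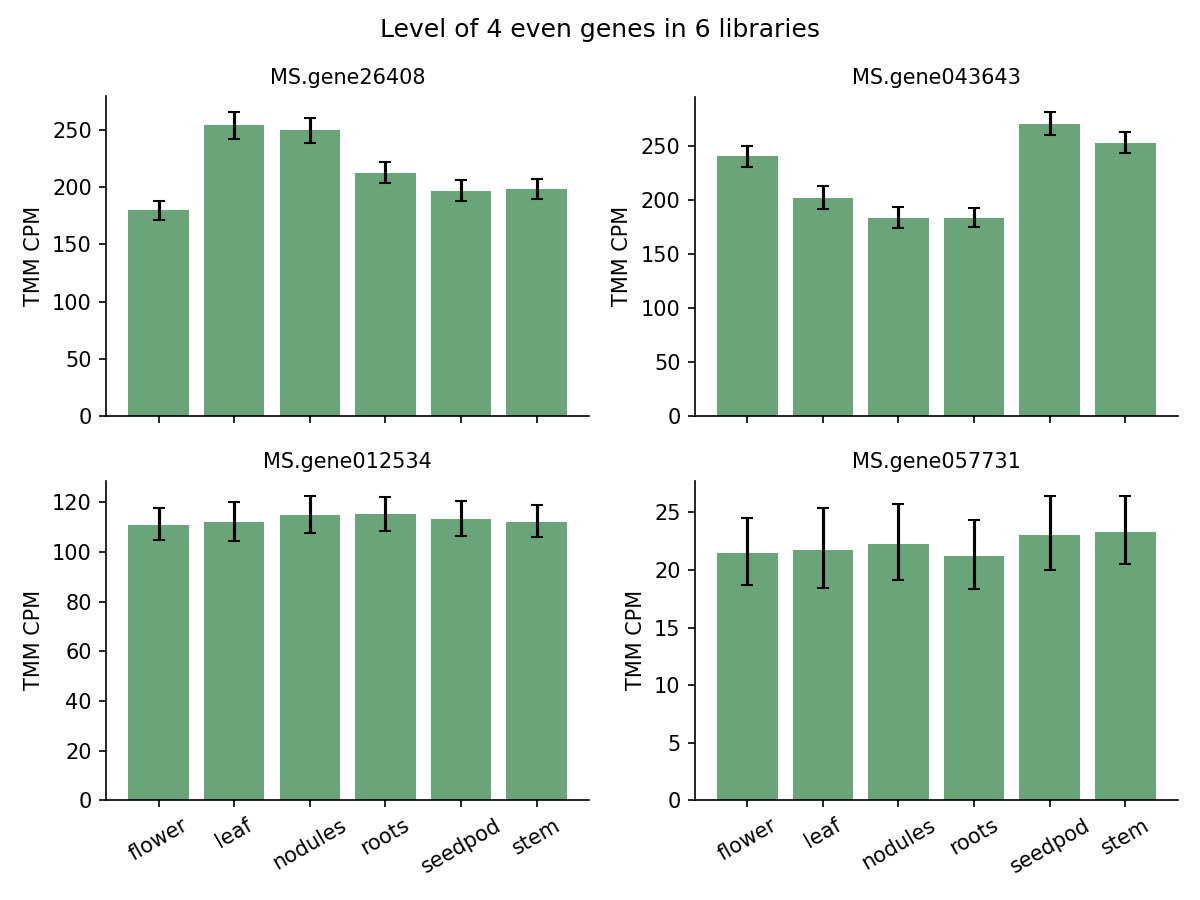
TMM CPM of 4 even genes in the 6 libraries (bars, 1 pooled library each, with 95% exact Poisson intervals): the 2 with the highest level per 1000 nucleotides (upper) and the 2 with the lowest ratio (lower). MS.gene012534 lies between 111 and 115 in every tissue, whereas MS.gene26408 is highest in leaf and nodules and MS.gene043643 in seedpod, stem and flower.

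The members nearest to the limits differed little from genes that were left out. A gene on chromosome 3.1 (81477836 to 81481214, 7 exons) entered at a ratio of 1.497 (1.26 to 1.78), with 27.99 TMM CPM in leaf and 41.9 in roots. Just outside, a gene on chromosome 8.3 (77255308 to 77259469, 13 exons) had a ratio of 1.5003 (1.27 to 1.77), and one on chromosome 4.4 (85960543 to 85968280, 13 exons) had 1.502 (1.32 to 1.71). At the level minimum, a gene on chromosome 7.1 (20109907 to 20128226, 24 exons) entered with 20.06 TMM CPM in seedpod. A gene on chromosome 2.4 (64060854 to 64062675, 4 exons) missed it with 19.9 in leaf, and one on chromosome 8.3 (64588587 to 64593072, 5 exons) with 19.9 in stem.

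Even genes were moderately rather than highly abundant. The median of the mean level over the 6 libraries was 42.6 TMM CPM, the middle part of the list ran from 30.9 to 77.1, and the highest mean was 454. For the 3096 other broadly expressed genes the median was 71.3 and the highest 3822. Part of this follows from the rule, since an even gene just above 20 in its lowest library also has a low mean. Only 36 even genes had a mean of 100 TMM CPM or more, and 31 reached 100 in every library. Together the 220 genes took 1.73% of the counts in stem, 1.69% in flower, 1.63% in roots, 1.54% in seedpod and 1.21% in both leaf and nodules. Their summed TMM CPM was close in all tissues, from 14561.1 in nodules to 15173.8 in flower, which the rule largely fixes. The shares of counts therefore largely follow the factors of the TMM scaling, which were 0.812 in leaf and 1.18 in stem.

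Small differences between tissues remained inside the rule. Of the 220 genes, 54 (24.5%) were highest in leaf, 43 (19.5%) in roots, 43 (19.5%) in seedpod, 30 (13.6%) in flower, 26 (11.8%) in stem and 24 (10.9%) in nodules. Among all 3316 broadly expressed genes the shares were 43.8% for leaf, 11.2% for roots, 10.7% for seedpod, 12.5% for flower, 6.45% for stem and 15.3% for nodules. The lowest library was nodules for 51 even genes (23.2%), stem for 50 (22.7%), leaf for 34 (15.5%), roots for 33 (15%), flower for 27 (12.3%) and seedpod for 25 (11.4%). Among all broadly expressed genes it was nodules in 14.6%, stem in 15.5%, leaf in 25.6%, roots in 11.1%, flower in 21.9% and seedpod in 11.3%. When the same 220 genes were put on library totals in place of TMM scaling, a comparison added after the data had been seen, stem was highest in 82 and lowest in 0, and leaf was highest in 0 and lowest in 101. With DESeq2 size factors leaf was highest in 84 of the 220 and stem lowest in 71. The order of the tissues within these genes therefore depends on the scaling.

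**Figure D3:**
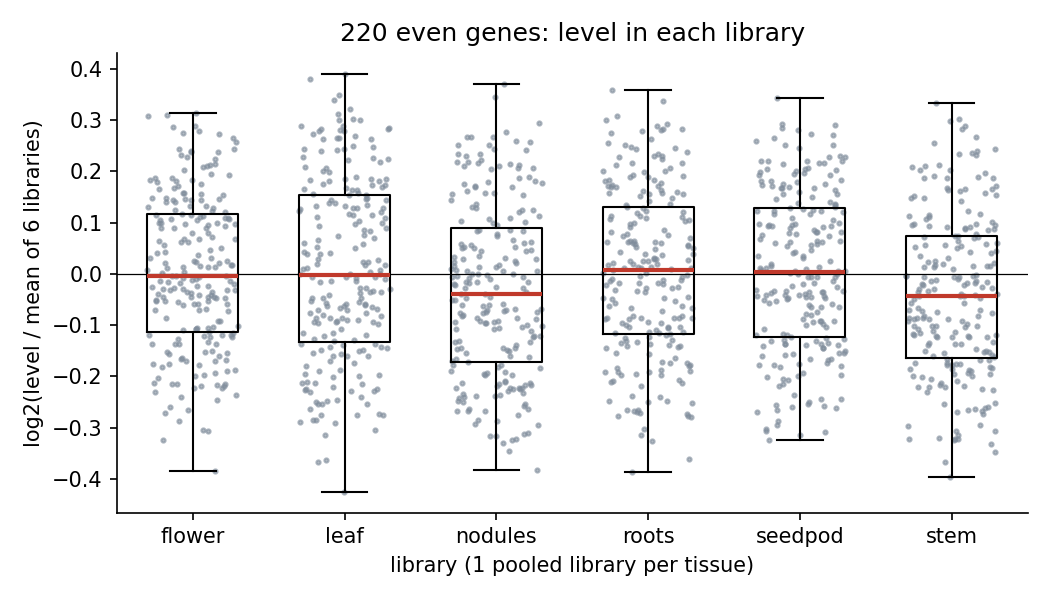
Log2 of each even gene's TMM CPM over its mean of the 6 libraries (220 points per library, with box for median and quartiles and whiskers to 1.5 box lengths). The medians lie within 0.05 of 0 in every library, with nodules (-0.04) and stem (-0.04) lowest.

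Pairs of tissues differed in how close the even genes were by TMM CPM. The differences were computed with TMM scaling only, whose factors were 1.03 in seedpod and 1.18 in stem. The order of the pairs may therefore change with the scaling, which was not examined. Seedpod and stem were closest, with a median difference of 1.097-fold in either direction, and 112 of the 220 genes (50.9%) lay within 1.1-fold. Flower and stem followed at 1.11-fold. Nodules and seedpod were farthest apart, at 1.16-fold, together with leaf and stem, also at 1.16-fold. Over all broadly expressed genes seedpod and stem were again the closest pair, at 1.19-fold, while every pair with leaf lay between 1.795-fold and 1.99-fold. Roots and stem were the highest and the lowest library, in either order, in 26 even genes, more than any other pair. That count depends on the TMM scaling. With library totals, stem was lowest in 0 and roots in 1 of the same 220 genes.

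Gene structure played no part in the choice of the genes, and TMM CPM is not divided by length. Even genes had more exons than broadly expressed genes in general, with a median of 9 against 6. Genes with 10 or more exons made up 44.1% of the even set (97 genes, interval 37.4 to 50.9) and 29.3% of the 3316 genes. Single-exon genes made up 6.36% (14 genes, 3.52 to 10.4) against 10.5%. The share of even genes ran from 4.02% of broadly expressed genes with 1 exon (2.22 to 6.66) and 3.88% with 2 to 5 exons (2.85 to 5.14) to 7.74% with 6 to 10 (6.12 to 9.63), 8.14% with 11 to 15 (5.77 to 11.1) and 12.9% with 16 or more (9.74 to 16.6). Copies of 1 gene on different haplotypes enter these shares separately, so the intervals can be too narrow.

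Coding length differed less. The median was 1522 nucleotides for even genes and 1347 for all broadly expressed genes, and 56.8% of even genes (interval 49.99 to 63.5) were longer than the latter. When broadly expressed genes were split by length into 4 classes of equal size, the even share was 5.43% in the shortest (3.99 to 7.20) and 8.81% in the longest (6.97 to 10.9). Within each length class, the share of even genes was higher among genes with more exons than the class median than among the rest. The shares were 8.21% and 4.10% in the shortest class, 7.36% and 5.15% in the next, 9.09% and 3.57% in the one after it, and 12.5% and 5.23% in the longest. The intervals of the 2 shares did not overlap in the longer 2 classes. Split by mean level into 4 classes instead, genes with 10 or more exons had the higher share in each, from 18.2% against 11.6% at the lowest levels to 5.85% against 2.40% at the highest. The intervals of the 2 shares overlapped in all 4 level classes. At 2 to 5 exons, genes over the median length of that exon class had a share of 3.04%, against 4.71% for the rest. The same shares were 6.79% and 8.69% at 6 to 10 exons, and 10.1% and 15.7% at 16 or more. At 1 exon they were 5.75% and 2.30%, and at 11 to 15 exons 8.18% and 8.11%. In each exon class the intervals overlapped.

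The exons themselves were shorter, with a median of the mean exon length of 158.5 nucleotides against 193 over all broadly expressed genes. The median span from first to last exon was 5372 nucleotides against 3903. The longest even gene lay on chromosome 7.2 (80791530 to 80813531), with 14 exons and 15306 nucleotides of coding length, at 25.2 TMM CPM in flower to 35.6 in roots. The shortest lay on chromosome 8.2 (22248534 to 22248776), with 2 exons and 159 nucleotides, at 20.2 TMM CPM in nodules to 27.9 in leaf. Chosen with library totals in place of TMM scaling, the even set had 34.9% of genes with 10 or more exons (60 of 172). The genes at 20 or more in all libraries had 29.2%, a smaller difference, and the medians were 7 and 6 exons. No interval was given for that share, so the exon excess is not shown to hold under library totals.

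**Figure D4:**
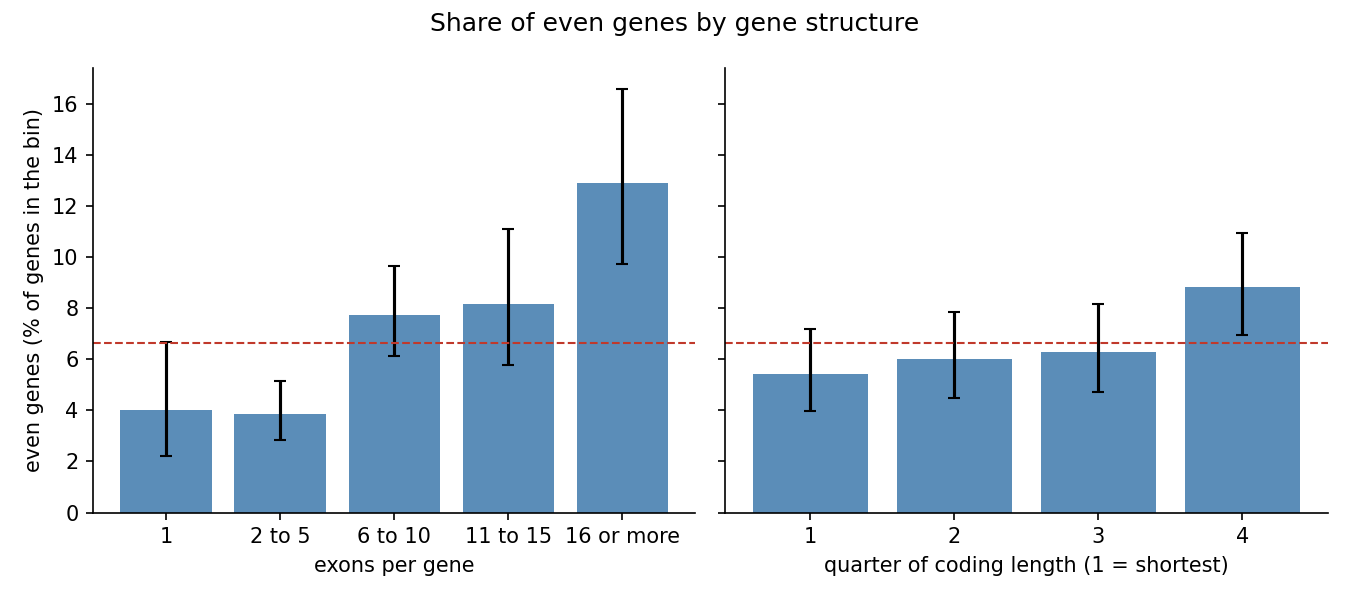
Share of even genes (bars, percent of the broadly expressed genes in each class, with 95% exact binomial intervals) by number of exons (left) and by class of coding length (right). The dashed line is the overall share of 6.63%, and the share rises to 12.9% in genes with 16 or more exons.

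The even genes were spread over the genome. They lay on all 8 chromosomes, from 13 genes on chromosome 6 to 39 on chromosome 1, and 5 lay on scaffolds. As a share of broadly expressed genes the chromosomes ran from 4.56% on chromosome 5 (2.68 to 7.20) to 7.78% on chromosome 1 (5.59 to 10.5), and all their intervals overlapped. By haplotype the numbers were 57, 60, 36 and 62 for haplotypes 1 to 4. Haplotype 3 had the lowest share, 4.44% (3.13 to 6.10), against 6.94% (5.30 to 8.90), 7.21% (5.55 to 9.19) and 7.63% (5.90 to 9.67), and its interval overlapped the other 3. On the same sequence, 4 pairs of even genes lay within 100000 nucleotides of each other. The number for other sets of genes was not counted, so it is not known whether 4 is few or many. The closest pair, on chromosome 3.4 (98122904 to 98127474 and 98136094 to 98140558), was 8619 nucleotides apart and differed in mean level, at 29.0 and 174 TMM CPM. No even gene had exons that overlapped those of another annotated gene (0 on the same strand and 0 on the opposite strand), and such overlaps were not counted for other genes.

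Alfalfa carries 4 copies of each chromosome, and the table lists genes of each haplotype separately. Genes on the same chromosome number with the same chain of exon lengths, from at least 3 exons, were taken as same-structure copies. Their sequences were not compared, and how reads of near-identical copies were divided is uncertain. Of 184 even genes with at least 3 exons on a chromosome, 108 had such a copy, in 103 sets. The same number over all broadly expressed genes is not given here, so 108 of 184 is not read as many or few. Another copy was also even for only 10 of the 108 genes. Counted for each even gene in turn, 10 of 235 other copies (4.26%, interval 2.06 to 7.69) met the whole rule, against 0.925% of the copies of all broadly expressed genes. That background contains the even genes and their copies. The 10 come from 5 sets with 2 even genes each, counted in both directions, so the interval is too narrow.

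Most copies fell below the level minimum, and many also exceeded the ratio limit. Of the 218 copies that were not even genes themselves, 194 fell below 20 TMM CPM in some library, and 81 had a mean under 1 TMM CPM. Low copies were common in general. Counted for each gene in turn, 15.7% of the copies of even genes were broadly expressed, against 22.6% of the copies of all broadly expressed genes. Among the 120 with at least 10 counts in every library the median ratio was 1.77, against 3.79 over all 24466 genes with that many counts. In 88 of these 120 copies (73.3%) the highest library was at most 2 times the lowest, against 14.9% of the 24466, and in 20 (16.7%) at most 1.5 times, against 2.89%. The copies' values were not used to choose the even genes, but copies that met the whole rule themselves were left out of the 218. The 24466 genes include the even genes and these copies, so the 2 sides are not chosen alike. Reads shared between copies could also carry the evenness from one to another, which was not tested. Summed over all copies, 81 of the 103 sets (78.6%) had a ratio of at most 1.5, which the choice of the genes largely fixes, since the even members held a median of 77.3% of a set's counts. Of 2940 sets with exactly 1 gene on each of the 4 haplotypes, 32 contained an even gene. All 4 genes reached 20 TMM CPM in every library in only 8 of the 2940 sets, so few could have had 4 even copies, and 0 did.

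The 3 sets with the most even members, 2 each, and the highest summed levels show how copies can differ. The first, with 9 exons, holds MS.gene012534 and a copy on chromosome 8.1 (2882885 to 2888400) with 118 TMM CPM in roots to 143 in seedpod, a ratio of 1.21 (1.11 to 1.31). The other copy, on chromosome 8.4 (3803804 to 3809394), had 8 to 12 counts per library and a mean of 1.09 TMM CPM. Summed, the set stood at 234 TMM CPM in roots to 257 in seedpod, a ratio of 1.098 (1.04 to 1.16).

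The second set, also with 9 exons, lay on chromosomes 7.2 (49857298 to 49862913) and 7.3 (50597496 to 50602914). Both copies were highest in roots and lowest in stem, at 61.7 and 48.5 TMM CPM on chromosome 7.2 and at 219 and 155 on chromosome 7.3. With library totals roots stayed highest in both, and nodules were lowest. The copy on chromosome 7.3 thus had the higher level at the same coding length of 1599 nucleotides, with mean levels of 173 and 54.4 TMM CPM. The third set, with 3 exons and 594 nucleotides, had 4 genes on chromosome 4. The even copies, on 4.1 (32496890 to 32498908) and 4.2 (36566384 to 36568402), had mean levels of 68.6 and 49.0 TMM CPM. A copy on 4.3 (35056603 to 35058724) had a mean of 47.5 and a ratio of 1.53 (1.32 to 1.77), just outside the limit, and another on 4.3 (34959685 to 34961750) had a mean of 6.11.

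**Figure D5:**
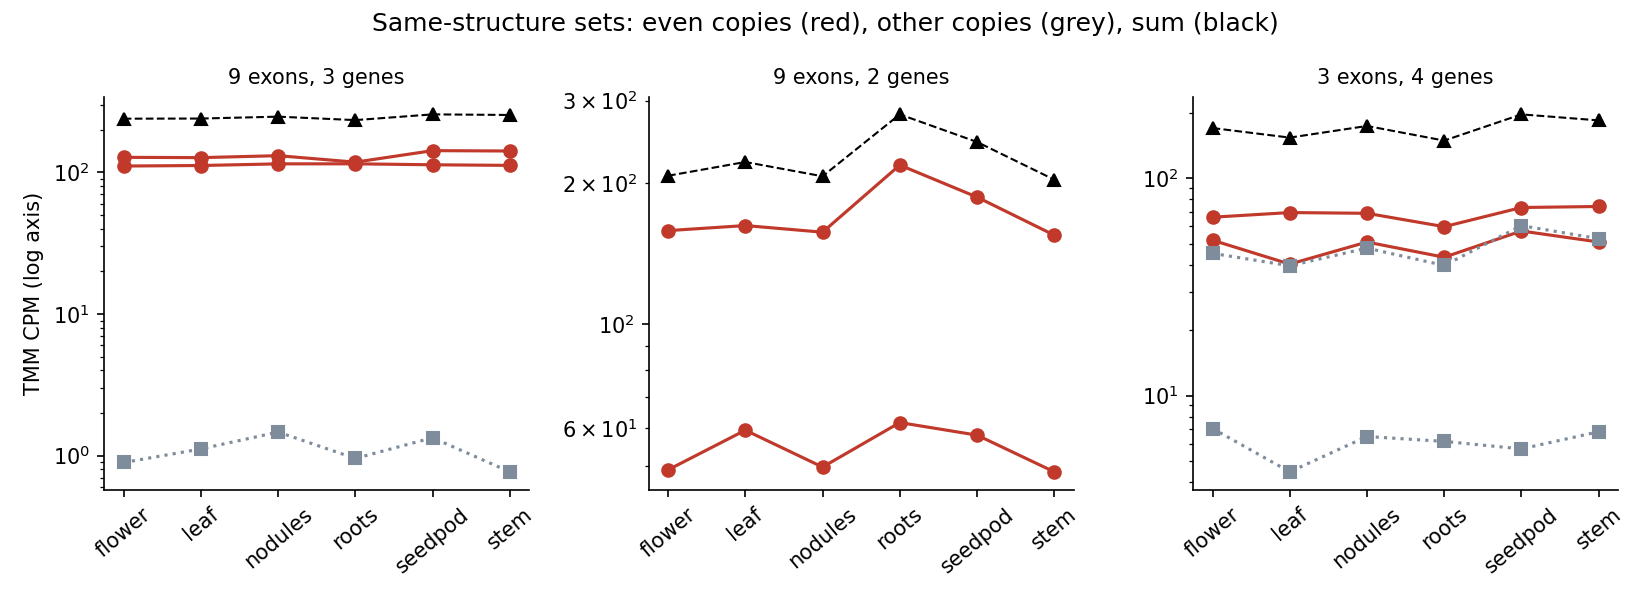
TMM CPM (log axis) of the genes in 3 same-structure sets across the 6 libraries, with even copies in red, other copies in grey and the sum in black. In the first set the even copies lie between 111 and 143 while the other copy lies near 1, and in the second set both copies peak in roots.

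Which genes counted as even depended strongly on the scaling. The TMM factors ran from 0.812 in leaf and 0.828 in nodules to 1.18 in stem, so a gene at exactly the same TMM CPM in all tissues differs 1.45-fold on library totals. With library totals 172 genes met the rule, and 46 of them were among the 220 (20.9% of the 220 and 26.7% of the 172). The 220 genes had a median ratio of 1.68 on that scale. With DESeq2 size factors 177 of the 220 stayed even (80.5% of the 220 and 83.5% of the 212 chosen that way), and with upper-quartile scaling 95 (43.2% of the 220 and 52.8% of 180).

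Of the 220 genes, 4 were even under all 5 scalings tried, and they were picked out after these values had been seen. They include MS.gene012534, with a ratio of 1.46 on library totals, and the gene on chromosome 6.2 described above, with 1.49. The others were a gene on chromosome 8.1 (5880997 to 5881304, 2 exons, 210 nucleotides), whose TMM CPM ran from 50.02 in stem to 58.3 in nodules, and one on chromosome 8.2 (37312280 to 37316734, 2 exons, 411 nucleotides), from 39.6 in stem to 49.9 in nodules. Their ratios on library totals were 1.397 and 1.47.

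By TMM CPM, the only scaling for which libraries were left out in turn, leaf was the library that decided most. Without it, 985 genes met the rule, 4.48 times as many. Of the 765 additional genes, 613 were broadly expressed, with leaf above the other 5 libraries in 421 and below them in 192, and 152 had under 20 TMM CPM in leaf. Leaving out any other library gave between 288 and 358 genes. Of the 985 genes, 36.1% had 10 or more exons, against 28.8% of the genes at 20 or more TMM CPM in the other 5 libraries.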

How the data were processed

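RNA-seq of 6 pooled tissue libraries was analysed from 1 table of raw counts per gene, deposited by the authors with exon positions. The summed exon length, a quantity other than a count, was also deposited, per the file headers. The tools edgeR, featureCounts, FastQC and Trimmomatic appear without versions or order, per the submitters' processing notes. For the aligner, genome build, strand setting and handling of multi-mapping reads, nothing is given in the sources used here. Totals were 8568581 to 9883512 counts per library, and no row lacked a gene name (0).

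Counts were scaled with edgeR 4.0.16 (TMM over all genes) in R 4.3.3. DESeq2 1.42.0 supplied alternative size factors only. Python 3.11.15, scipy 1.17.1, pandas 2.3.3, matplotlib 3.10.9 and numpy 2.4.6 did the rest, and the rule was tried on simulated counts. There all but 200 genes were drawn at an even level, unlike in these libraries. That trial therefore does not show that the scaling suits these libraries. Levels have exact Poisson intervals, ratios conditional Clopper-Pearson intervals and shares exact binomial intervals, at 95%. PCR copies cannot be recognised here, so reads are not independent molecules and intervals cover counting error only. With 1 library per tissue no test was made.

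Genes named were the 5 highest per 1000 nucleotides, the 5 lowest in ratio, the nearest to each limit, the longest, the shortest, the one with the most exons and the 3 sets with most even copies. A list of housekeeping and tissue marker names had 0 matches, so tissue labels could not be checked against markers. The genes and lists were chosen with earlier results of these data known. Alternatives in scaling, limits, depth, copies and libraries are given in the closing section, and shares of exon number under them were added after seeing the data.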

Additional observations from a re-analysis of the deposited data

How the results depend on the processing

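The number of even genes (220) stayed within 1.5 times under the 4 other scalings (172 to 216), thinning to the smallest total (214), summing same-structure copies (247) and leaving out flower, roots, seedpod or stem, but only 46 of the 220 were among the genes chosen with library totals. It was 425 at a minimum of 10 TMM CPM, 78 at 50, 24 when the highest library could be at most 25% above the lowest (the stricter ratio limit), 870 at a ratio limit of 2, 985 without leaf, 358 without nodules and 47 when the upper bound had to meet 1.5.

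As a share of broadly expressed genes (6.63%), it was 5.51% with library totals, 5.32% with upper-quartile scaling, 8.07% at 50 TMM CPM, 0.724% at the stricter ratio limit, 26.2% at 2 and 1.42% by the upper bound. Without 1 library it was 8.95% (flower), 22.8% (leaf), 10.1% (nodules), 9.35% (roots), 8.40% (seedpod) and 8.52% (stem), and fewer libraries make the rule easier to meet.

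The even genes' share of all counts (1.497%) was 1.38% with library totals, 1.48% with DESeq2 size factors, 0.984% at 50 TMM CPM, 0.178% at the stricter ratio limit and 6.96% at 2. The share longer than the median was 64.1% at 50 TMM CPM. Even genes with an even copy numbered 2 at 50 TMM CPM, 2 at the stricter ratio limit and 133 at 2, and the share of copies that were even was 9.52% at the stricter limit and 15.9% at 2. Among the 172 genes chosen with library totals, which share 46 with the 220, nodules were highest in 14 and seedpod in 6, and roots were lowest in 19, seedpod in 40 and stem in 19. The share with 10 or more exons was 34.9% with library totals, 36.7% at 2 and 36.1% without leaf, all above the background of broadly expressed genes. These shares have no intervals, and with library totals the difference from the background was smaller. Beyond the limits set by the rule itself, the cause of these changes was not tested.

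No paired analysis was possible because each tissue has 1 pooled library. Depth limits the genes near 20 TMM CPM most, where intervals of the ratio reach well past 1.5.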
